A study of Mus musculus with 39 samples.

Results

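Gene expression of TrkC+ sensory neurons was compared between newborn mice that lack both NT3 and Bax and wild-type newborn mice, over every probe set of the array and in both directions. The comparison uses 4 of the 39 arrays of the series, 2 from NT3-/-Bax-/- and 2 from wild-type mice, chosen by genotype, by age (p0) and by the TrkC+ population sorted from pooled lumbar DRG. After the Affymetrix control probe sets were set aside, 45037 probe sets were tested, of which 34945 named 1 gene each, for 18193 genes in all. The series also holds Bax-/- and mlcNT3 mice, TrkC- populations, separate L1 and L5 ganglia and whole adult DRG.

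NT3-/-Bax-/- mice carry null alleles of the neurotrophin NT3 and of Bax, which drives the death of developing neurons, and the wild-type mice carry neither. Both groups carry a TrkC-GFP transgene on a mixed 129/C57Bl6 background. For both, DRG of levels L1 to L6 were pooled at p0, dissociated, and separated into GFP-positive and GFP-negative cells by flow cytometry, with an average of 350 cells per sample. Both null alleles are germline, so the genotypes differ in 2 genes at once and from before the neurons form. The 2 Bax-/- TrkC+ arrays of the same age and sort, which lack Bax and keep NT3, are therefore given beside the leading results. GFP comes from the transgene and not from the TrkC locus. In bulk samples such as these, fewer cells of a type and less RNA per cell cannot be told apart. The labels do not say whether the arrays of a group came from separate litters. P-values measure only the spread between replicate arrays, pooled over the 16 arrays of pooled p0 DRG, and that spread may be technical. The log2 differences between replicates had a standard deviation of 0.53 in NT3-/-Bax-/- and 0.28 in wild-type neurons, so the pooled spread may be too small for the mutants.

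NT3 is the ligand of the receptor tyrosine kinase TrkC. Proprioceptors, the sensory neurons that innervate muscle spindles and Golgi tendon organs, express TrkC and die before birth without NT3, unless the death pathway is blocked by removal of Bax. Binding of NT3 activates the ERK, PI3-kinase and PLC-gamma pathways, through which target tissues shape the survival, the axon growth and the maturation of these neurons.

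No probe set of Ntf3 (NT3), Bax or Etv1, an ETS factor of proprioceptors, was assigned to that gene alone, so the knockouts could not be checked on their own transcripts. Of 12 proprioceptor markers 4 fell, 3 rose and 5 did not pass the test, with a median log2 difference of -0.23. Their summed expression value was 12085 and 13223 in NT3-/-Bax-/- neurons, against 19733 and 18619 in wild-type neurons. Pvalb, parvalbumin, fell by 4.37 (standard error 0.55) and Chad, an extracellular matrix protein, by 1.85. The lower sum rests on Pvalb, which had values of 156 and 838.5 in NT3-/-Bax-/- against 7764 and 7173 in wild-type neurons. Pth1r, the parathyroid hormone receptor, had values of 266 and 191 in NT3-/-Bax-/- neurons against 2998 and 2771 in wild-type neurons (-3.68, standard error 0.41). Lmcd1 fell by 1.14, a call lost without any of 7 of the 16 arrays, among them both NT3-/-Bax-/- replicates and wild-type replicate 1 (adjusted p = 0.155, 0.0666 and 0.259). Heg1, a transmembrane protein, rose to 458 and 308 in NT3-/-Bax-/- neurons against 34.4 and 34.3 in wild-type neurons (3.45, standard error 0.52). Wild-type TrkC- cells had 42.0 and 54.2 for Heg1, so in these data it was not enriched in wild-type proprioceptors. It also rose in TrkC- cells (3.10). Tafa1 rose by 1.29. Shox2, a homeobox factor, rose by 1.31, a call lost without NT3-/-Bax-/- replicate 1 or either wild-type replicate (adjusted p = 0.104, 0.111 and 0.0627). Among those that did not pass, Runx3, a transcription factor of proprioceptors, had values of 593 and 892 in NT3-/-Bax-/- neurons and 1158 and 906 in wild-type neurons (adjusted p = 0.248), and the brightest probe set of Esrrg, a nuclear receptor, had 1935 and 2350 against 2441 and 2512 (adjusted p = 0.740). Another probe set of Esrrg rose, with 1032 and 1626 in NT3-/-Bax-/- against 232.5 and 350 in wild-type neurons (2.18). That call was lost without any of 12 of the 16 arrays. Values throughout are RMA expression values on a linear scale, replicate 1 before replicate 2, and differences and their standard errors are on the log2 scale. The array median lay between 68.7 and 69.4, and 5% of probe sets lay below 10.4 to 10.9, which sets the low end of the scale. Sex-linked transcripts differed between replicates within both genotypes. Xist, which is transcribed from the inactive X chromosome, had values of 57.8 and 5407 in NT3-/-Bax-/- and 2535 and 77.0 in wild-type neurons, while the Y-linked Eif2s3y had 1769 and 9.0 against 11.4 and 1032. Each genotype thus held 1 array of each pattern, and neither gene passed the test between genotypes. The part of this pattern in other differences between replicates was not tested.

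Expression differed widely between NT3-/-Bax-/- and wild-type TrkC+ neurons, in both directions. At an adjusted p under 0.05 (limma, Benjamini-Hochberg), 5729 probe sets fell (12.7%) and 5987 rose (13.3%) in the mutants, in all 26.0% of those tested. Under the thresholds of the study's methods (unadjusted p no larger than 0.02, with a 2-fold change or more), 3480 fell (7.73%) and 3842 rose (8.53%). The values of the mutant and wild-type arrays did not overlap for 62.2% of all probe sets. With 1 probe set per gene, the brightest, 3090 genes (17.0%) were lower and 2066 (11.4%) higher, and the median log2 difference over all genes was -0.08. The counts of each gene list are read against these shares, and a list near them is not set apart from all genes by its counts. Large differences lay mostly on the lower side, with 193 genes at -3 or below and 74 at 3 or above on the log2 scale. In the same fit, 225 probe sets (0.500%) differed between Bax-/- and wild-type neurons, and 8204 (18.2%) between NT3-/-Bax-/- and Bax-/- neurons. These comparisons share arrays with the first. Without Bax-/- replicate 1, wild-type replicate 1 or wild-type replicate 2, the 225 became 1151, 11 and 9, and the 8204 became 5241 without NT3-/-Bax-/- replicate 1 and 5333 without Bax-/- replicate 1. Over the 11716 probe sets called, the median size of the log2 difference was 1.15 between NT3-/-Bax-/- and wild-type neurons, 0.87 between NT3-/-Bax-/- and Bax-/- neurons and 0.33 between Bax-/- and wild-type neurons. As these probe sets were selected by the first difference, its median is raised by the selection and the order of the medians is partly set by it. The number lower was 3786 without NT3-/-Bax-/- replicate 1, 3318 without wild-type replicate 1 and 3755 without wild-type replicate 2, and the number higher was 3726 and 3492 without wild-type replicate 1 and 2.

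The 14 genes with the largest falls had no value below 500 in wild-type neurons, where Lyz1 was lowest at 881 and 500, and none above 297 in NT3-/-Bax-/- neurons, where Vsnl1 was highest. Among them are secreted proteins, channels and receptors, and proteins that bind calcium. They were chosen among called genes whose groups did not overlap, so the lack of overlap is part of their selection. It held for 64.4% of all genes. In many of the leading falls and rises 1 group lay near the low end of the scale, so that the size of the difference is not compared between genes. Reg3b, a lectin of the regenerating islet-derived family, had values of 16.3 and 12.8 in NT3-/-Bax-/- neurons and 3419 and 3159 in wild-type neurons, which differed by -7.83 (standard error 0.84, adjusted p = 5.20e-05). In Bax-/- neurons its values were 3522 and 226, so that the Bax-/- replicates lay far apart. Scn4b, the beta-4 subunit of voltage-gated sodium channels, had values of 17.3 and 19.6 in NT3-/-Bax-/-, 2254 and 1188 in Bax-/- and 2503 and 2009 in wild-type neurons (-6.93, standard error 0.45). Kitl, the ligand of the receptor tyrosine kinase Kit, had 17.6 and 59.9 in NT3-/-Bax-/-, 1947 and 2598 in Bax-/- and 3247 and 2805 in wild-type neurons (-6.54, standard error 0.41, adjusted p = 1.42e-06). All 3 were low on both mutant arrays, and of the Bax-/- values only 226 for Reg3b lay far below wild-type.

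Several of the falls encode proteins that bind calcium or actin. Vsnl1, a neuronal calcium sensor, had values of 37.1 and 297 in NT3-/-Bax-/- neurons against 6801 and 6590 in wild-type neurons (log2 difference -6.0), with mutant replicates far apart. Cpne6, a copine that binds membranes in the presence of calcium, had 118 and 98.7 against 4977 and 4829 (-5.51), and Mctp2, a C2-domain protein, had 44.5 and 34.0 against 2910.5 and 3170 (-6.29). Lcp1, an actin-bundling plastin, had 26.7 and 92.2 against 4268 and 3716 (-6.33). On the Bax-/- arrays the lowest value of these 4 genes was 2076, of Lcp1.

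Receptors and their modulators formed another set of the largest falls. Htr2c, a serotonin receptor, had values of 16 and 12 in NT3-/-Bax-/-, 924 and 1023 in Bax-/- and 948 and 882 in wild-type neurons, with the smallest standard error of the 14 (log2 difference -6.04, standard error 0.21, adjusted p = 3.79e-08). Gabrg1, the gamma-1 subunit of the GABA-A receptor, had 18.7 and 26.3 in NT3-/-Bax-/- against 890 and 1267 in wild-type neurons (-5.58), and a dimmer probe set of the gene fell by 2.88. Lynx1, a GPI-anchored modulator of nicotinic receptors, had 112 and 105 against 5728.5 and 4954 (-5.62), and another probe set of it fell by 6.88. Rgs4, which shortens G protein signals, had 49.7 and 128 in NT3-/-Bax-/- against 3759 and 3566 in wild-type neurons (-5.52). All 4 were low on both mutant arrays. The remaining falls were Ppm1j, a protein phosphatase (-5.72), Ipcef1, an interactor of cytohesin exchange factors (-5.42), and Lyz1, a lysozyme (-5.41, standard error 1.20).

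**Figure D1:**
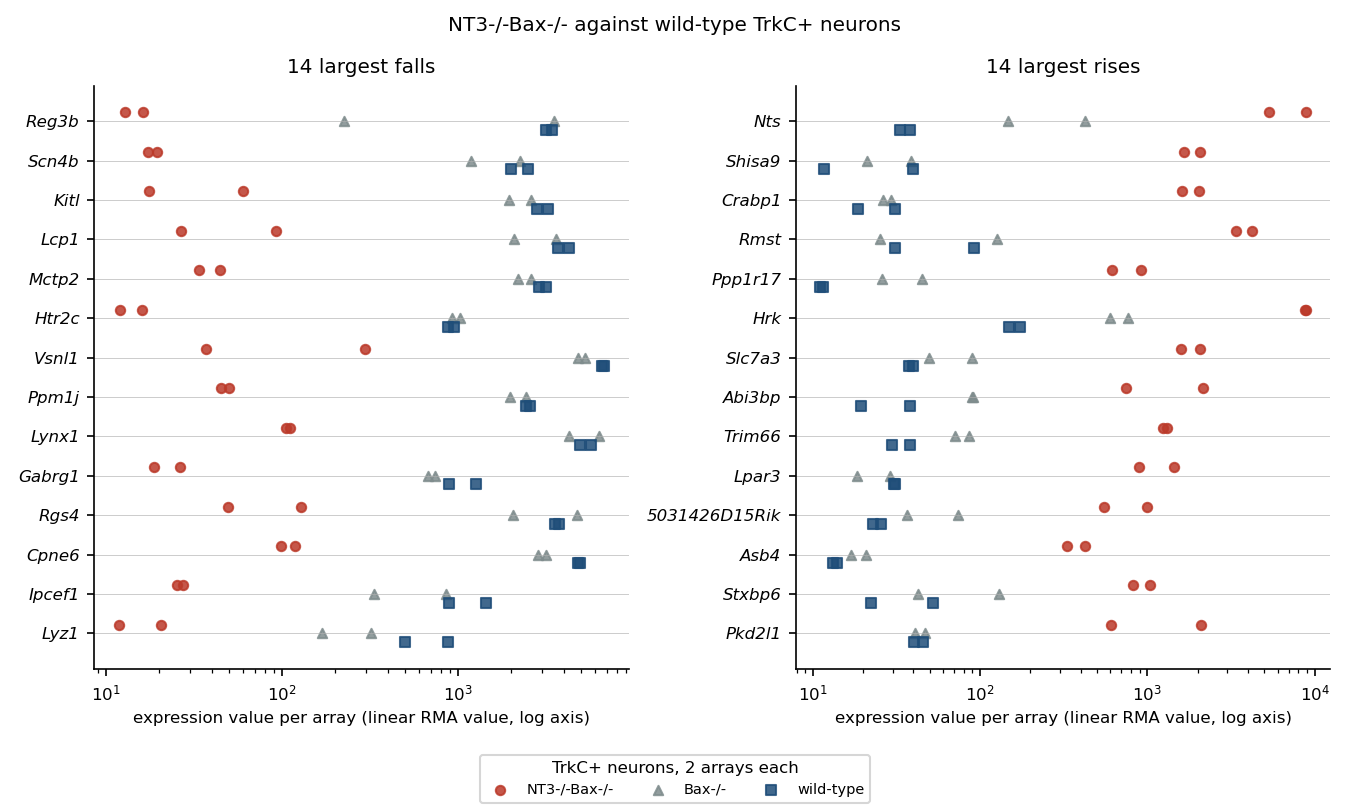
Expression values (linear RMA values on a log axis) of the 14 genes with the largest falls (left) and the 14 with the largest rises (right) in NT3-/-Bax-/- against wild-type TrkC+ neurons, 1 symbol per array, with the 2 Bax-/- arrays between them. On every row the NT3-/-Bax-/- arrays lie apart from the wild-type arrays, as the genes were chosen for this. The Bax-/- arrays lie nearer to wild-type, except for 1 Bax-/- array of Reg3b at 226.

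The 14 largest rises were of genes with no value above 172 in wild-type neurons, that of Hrk. Nts, the precursor of the neuropeptide neurotensin, had values of 8887 and 5341 in NT3-/-Bax-/-, 147 and 423 in Bax-/- and 38.1 and 33.2 in wild-type neurons, below the array median (log2 difference 7.60, standard error 0.46, adjusted p = 1.23e-06). Hrk, a BH3-only protein that triggers apoptosis, had 8733 and 8825 in NT3-/-Bax-/-, 598 and 763 in Bax-/- and 149 and 172 in wild-type neurons (5.78, standard error 0.28), and a second probe set of it rose by 3.54. On the brightest probe set of both genes the Bax-/- arrays lay between the other genotypes and overlapped neither. On the second probe set of Hrk the Bax-/- values of 36.9 and 48.7 overlapped the wild-type values of 43.9 and 38.5. Crabp1, a retinoic acid binding protein, had 1600 and 2047 in NT3-/-Bax-/-, 26.2 and 29.2 in Bax-/- and 18.6 and 30.9 in wild-type neurons (6.24, standard error 0.40), with the Bax-/- values inside the wild-type range.

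Other strong rises encoded proteins of the synapse, the membrane and the nucleus. Shisa9, an auxiliary subunit of AMPA receptors, had values of 1663 and 2057 in NT3-/-Bax-/- neurons against 39.7 and 11.7 in wild-type neurons (log2 difference 6.42, standard error 0.54). Slc7a3, a transporter of cationic amino acids, had 2055 and 1596 against 39.5 and 37.8 (5.55, standard error 0.35). Lpar3, a receptor for lysophosphatidic acid, had 890 and 1452 against 31.0 and 30.5 (5.21, standard error 0.49). All 3 lay below the array median on both wild-type arrays. Trim66, a nuclear protein of the tripartite motif family, rose by 5.25 with mutant values of 1317 and 1248, and Stxbp6, a regulator of SNARE complexes, by 4.75 with 824 and 1032. The long non-coding RNA Rmst (6.14), Ppp1r17 (6.06), an inhibitor of protein phosphatases, Abi3bp (5.54), an extracellular matrix protein, the transcript 5031426D15Rik (4.93), Asb4 (4.78) and the TRP-family channel Pkd2l1 (4.71) completed the 14. Abi3bp and Pkd2l1 rose on both mutant arrays but to different levels, with 743 and 2146.5 for Abi3bp and 2083 and 608 for Pkd2l1.

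Genes of the integrated stress response rose. This response is set off when translation factor eIF2 is phosphorylated, and works through ATF4, which with its partners switches on genes of amino acid supply and of stress-induced death. Of 20 measured members 13 rose and 0 fell, a share of 65.0% against 11.4% of all genes, with a median log2 difference of 0.97 against -0.08, and 8 rose without NT3-/-Bax-/- replicate 1. Ddit3 (CHOP), a transcription factor that promotes death under stress, had values of 1310 and 662 in NT3-/-Bax-/-, 175 and 150 in Bax-/- and 109 and 124 in wild-type neurons (3.01, standard error 0.30, adjusted p = 2.76e-05). Atf5, a related transcription factor, had 2362 and 1045 in NT3-/-Bax-/- against 214 and 201 in wild-type neurons (2.92), and Trib3, a pseudokinase induced by ATF4, had 1418 and 926 against 194 and 142 (2.79). Replicate 1 was the higher mutant array for each of the 3 genes, and none overlapped wild-type. Enzymes of serine synthesis rose, Phgdh to 3949 and 1220 in NT3-/-Bax-/- against 476 and 354 in wild-type neurons (2.42) and Psat1 to 3848 and 3271 against 1179 and 1255 (1.54). Chac1, which degrades glutathione, rose by 1.49 and Atf4 itself by 0.89. Asns, asparagine synthetase, had 5970 and 4409 in NT3-/-Bax-/- against 5267 and 5986 in wild-type neurons, which overlapped, and did not pass the test.

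Promoters of 6 genes are printed from RefSeq (build GRCm38.p6), 300 bases each that span the gene start, 5′ to 3′ on the gene's strand. Trib3, Chac1 and Asns are on the stress response list, while Nts, Hrk and Crabp1 are from the 14 largest rises and not on that list. They were chosen because the letters TGATGNAA, a form of the composite element to which ATF4 and C/EBP proteins bind, occurred in each. The match on either strand is in capitals. Nts (log2 difference 7.60) lies at chr10:102490369-102490668, minus strand. Hrk (5.78) lies at chr5:118169514-118169813, plus strand. Crabp1 (6.24) lies at chr9:54764498-54764797, plus strand. Trib3 (2.79) lies at chr2:152344011-152344310, minus strand, Chac1 (1.49) at chr2:119350992-119351291, plus strand, and Asns (-0.13) at chr6:7693160-7693459, minus strand.
Nts: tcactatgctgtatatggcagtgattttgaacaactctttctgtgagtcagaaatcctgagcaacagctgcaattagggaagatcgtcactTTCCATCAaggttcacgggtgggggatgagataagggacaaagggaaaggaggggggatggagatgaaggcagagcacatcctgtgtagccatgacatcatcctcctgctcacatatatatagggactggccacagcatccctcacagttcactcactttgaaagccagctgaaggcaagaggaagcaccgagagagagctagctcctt
Hrk: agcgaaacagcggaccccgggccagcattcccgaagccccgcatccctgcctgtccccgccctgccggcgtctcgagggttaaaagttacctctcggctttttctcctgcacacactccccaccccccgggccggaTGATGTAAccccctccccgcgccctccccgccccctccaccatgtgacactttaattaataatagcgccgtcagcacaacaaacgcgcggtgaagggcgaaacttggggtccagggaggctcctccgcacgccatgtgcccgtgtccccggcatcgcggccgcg
Crabp1: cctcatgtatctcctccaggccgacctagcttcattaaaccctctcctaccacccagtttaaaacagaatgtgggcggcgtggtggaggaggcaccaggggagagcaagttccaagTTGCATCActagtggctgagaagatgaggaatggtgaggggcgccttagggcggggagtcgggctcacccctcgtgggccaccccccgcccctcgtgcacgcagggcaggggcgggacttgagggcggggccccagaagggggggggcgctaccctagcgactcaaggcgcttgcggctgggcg
Trib3: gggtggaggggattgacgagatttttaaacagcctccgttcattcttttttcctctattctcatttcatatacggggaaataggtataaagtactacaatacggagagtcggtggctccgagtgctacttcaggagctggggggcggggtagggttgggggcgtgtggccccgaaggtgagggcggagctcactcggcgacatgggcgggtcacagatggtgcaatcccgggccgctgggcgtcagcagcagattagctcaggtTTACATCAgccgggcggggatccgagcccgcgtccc
Chac1: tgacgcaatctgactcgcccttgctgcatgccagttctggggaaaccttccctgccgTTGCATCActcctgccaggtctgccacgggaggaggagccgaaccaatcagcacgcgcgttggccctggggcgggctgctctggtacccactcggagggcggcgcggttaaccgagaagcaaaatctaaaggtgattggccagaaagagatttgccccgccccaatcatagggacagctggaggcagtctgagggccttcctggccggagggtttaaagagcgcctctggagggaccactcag
Asns: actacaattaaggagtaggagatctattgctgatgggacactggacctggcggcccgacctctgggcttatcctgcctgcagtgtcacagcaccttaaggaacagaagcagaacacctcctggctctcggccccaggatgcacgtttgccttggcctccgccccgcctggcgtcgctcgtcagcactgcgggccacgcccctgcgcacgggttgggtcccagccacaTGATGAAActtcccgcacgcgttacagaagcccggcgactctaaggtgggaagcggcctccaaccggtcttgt

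Of 27025 mouse promoters, 4.06% held these letters. Promoters were found for 17 of the 20 stress response genes, and 4 of them (23.5%) held the letters, 2 among the 11 that rose (Trib3 and Chac1) and 2 among the others (Asns and Slc7a11). Of the 14 largest rises 7 had a promoter in the table and 3 held the letters (Nts, Hrk and Crabp1), and of the 14 largest falls 12 had a promoter and 1 (Mctp2) held them. The cyclic AMP element TGACGTCA, searched in the same way, was in 1.88% of all promoters and in none of these groups. Such matches describe the letters only.

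Genes of neuronal death were called in both directions. Of 15 BH3-only and other death genes 3 rose and 3 fell (20.0% each), near the shares of all genes (11.4% higher and 17.0% lower). Of 7 survival genes of the BCL2 and IAP families 1 rose (14.3%) and 3 fell (42.9%). Birc2, the survival gene that rose (0.55), lost its call without NT3-/-Bax-/- replicate 2 or either wild-type replicate (adjusted p = 0.135, 0.0781 and 0.154). Bcl2l11 (Bim), a BH3-only activator of BAX, had values of 3820 and 4357 in NT3-/-Bax-/-, 1511 and 3305 in Bax-/- and 748 and 539 in wild-type neurons (2.68, standard error 0.37), and all 6 arrays followed that order of genotypes. Bcl2, which restrains BAX, had 651 and 1000 in NT3-/-Bax-/- against 3122 and 2407 in wild-type neurons (-1.76, standard error 0.30). Bcl2l2 (Bcl-w) fell by 1.16 to 853 and 834, against 1954 and 1828 in wild-type neurons. Diablo, a mitochondrial protein that frees caspases, had 1051 and 831 in NT3-/-Bax-/- against 2439 and 2250 in wild-type neurons (-1.33), a change opposite to that of the BH3-only genes. The number of death genes that fell was 1 without NT3-/-Bax-/- replicate 1, NT3-/-Bax-/- replicate 2 or wild-type replicate 1, and Diablo kept its call without any 1 array, unlike Casp9 (-0.76) and Cycs (-0.52). Pmaip1, Bmf, Xiap and Mcl1 did not pass the test (0.05, 0.25, -0.02 and 0.22). Of 16 p53 targets 4 rose and 6 fell (3 without wild-type replicate 1 or 2), with Sesn1 (1.43) and Trp53inp1 (1.23) on the higher and Aen (-1.85) and Zmat3 (-1.03) on the lower side.

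Atf3 and Jun, transcription factors induced by stress and axon injury, rose. Atf3 had values of 1021 and 906 in NT3-/-Bax-/-, 133 and 195 in Bax-/- and 90.7 and 58.2 in wild-type neurons (3.73, standard error 0.45, adjusted p = 1.16e-04), and Jun had 7517 and 7953, 2346 and 3356, and 2086 and 1421 in the same order (2.17, standard error 0.31). Of 18 immediate early genes 6 rose (33.3%) and 2 fell (11.1%), against 11.4% higher and 17.0% lower among all genes, and 10 did not pass the test. Besides Atf3 and Jun, Nr4a2 (1.90), Ier5 (1.94) and Klf6 (1.55) rose. Their relatives Nr4a1 and Fosl2 fell, Nr4a1 to 268 and 306 in NT3-/-Bax-/- against 866 and 737 in wild-type neurons (-1.48) and Fosl2 to 270 and 282 against 1085 and 1030 (-1.94). Fos did not pass the test (0.24). Of 24 nerve injury and regeneration genes 7 rose (29.2%), 4 fell (16.7%) and 13 did not pass. Flrt3, a transmembrane protein of growing axons, had 1277 and 1317 in NT3-/-Bax-/-, 87.2 and 215 in Bax-/- and 72.4 and 59.0 in wild-type neurons (4.31, standard error 0.36), and Stmn4, a microtubule regulator, rose by 1.89. The cytokine signal genes Stat3 (-1.80) and Socs3 (-2.39) fell.

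Genes that are switched on by ERK were lower, and some other MAP kinase phosphatases were higher. Of 23 ERK-induced and ERK feedback genes 14 fell and 2 rose, 60.9% lower against 17.0% of all genes, with a median log2 difference of -1.21, and 12 to 14 fell when any 1 of the 4 arrays was left out. Vgf, a neurotrophin-induced secretory protein, had values of 89.1 and 110 in NT3-/-Bax-/-, 516 and 600 in Bax-/- and 867 and 846 in wild-type neurons (-3.11, standard error 0.22). Phlda1 had 161 and 111 in NT3-/-Bax-/- against 511 and 473 in wild-type neurons (-1.88), and Ier3 had 120 and 140 against 504 and 446 (-1.87). Dusp6, the ERK phosphatase, fell to 17.8 and 54.1 in NT3-/-Bax-/- against 249 and 184 in wild-type neurons (-2.79). The stress kinase phosphatases Dusp16 and Dusp10 rose, Dusp16 to 1974 and 2326 in NT3-/-Bax-/- against 496 and 293 in wild-type neurons (2.49) and Dusp10 to 293 and 265 against 71.2 and 50.7 (2.21). Il17rd, also known as Sef and an inhibitor of the same pathway, rose by 1.71, and Egr1, an immediate early gene, by 0.68, which lost its call without NT3-/-Bax-/- replicate 2 (adjusted p = 0.222) or wild-type replicate 2 (adjusted p = 0.293). Of the 10 other phosphatases, 5 rose, and 2 or 3 when any 1 of the 4 arrays was left out.

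The receptors and adaptors upstream of ERK differed member by member, with 31.6% lower and 21.1% higher against 17.0% and 11.4% of all genes. Of 19 neurotrophin receptor and adaptor genes 6 fell and 4 rose, and 2 rose without wild-type replicate 2. Shc4, an adaptor of receptor tyrosine kinases, had values of 26.0 and 48.1 in NT3-/-Bax-/-, 397 and 344 in Bax-/- and 514 and 558 in wild-type neurons (-3.92, standard error 0.43). Bdnf had 33.2 and 57.8 in NT3-/-Bax-/- against 557 and 553 in wild-type neurons (-3.66), and Ngfr, the p75 neurotrophin receptor, had 559 and 962 against 4696 and 4402 (-2.63). Gab1, a docking protein of the PI3-kinase pathway, was higher, with 3623 and 3971 in NT3-/-Bax-/- against 923 and 650 in wild-type neurons (2.29, standard error 0.25). Ntrk3, the gene of TrkC, differed between its probe sets. The brightest had 1798 and 2356 in NT3-/-Bax-/- against 2532 and 2286 in wild-type neurons (-0.23, adjusted p = 0.657), and another had 2926 and 3925 against 1390 and 1466 (1.25, adjusted p = 0.00220).

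Lists of several functions thus shifted to one side, as the plot of all lists shows. Glycolysis, Kv potassium channels and ERK-induced genes lay furthest on the lower side, and the integrated stress response furthest on the higher side.

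**Figure D2:**
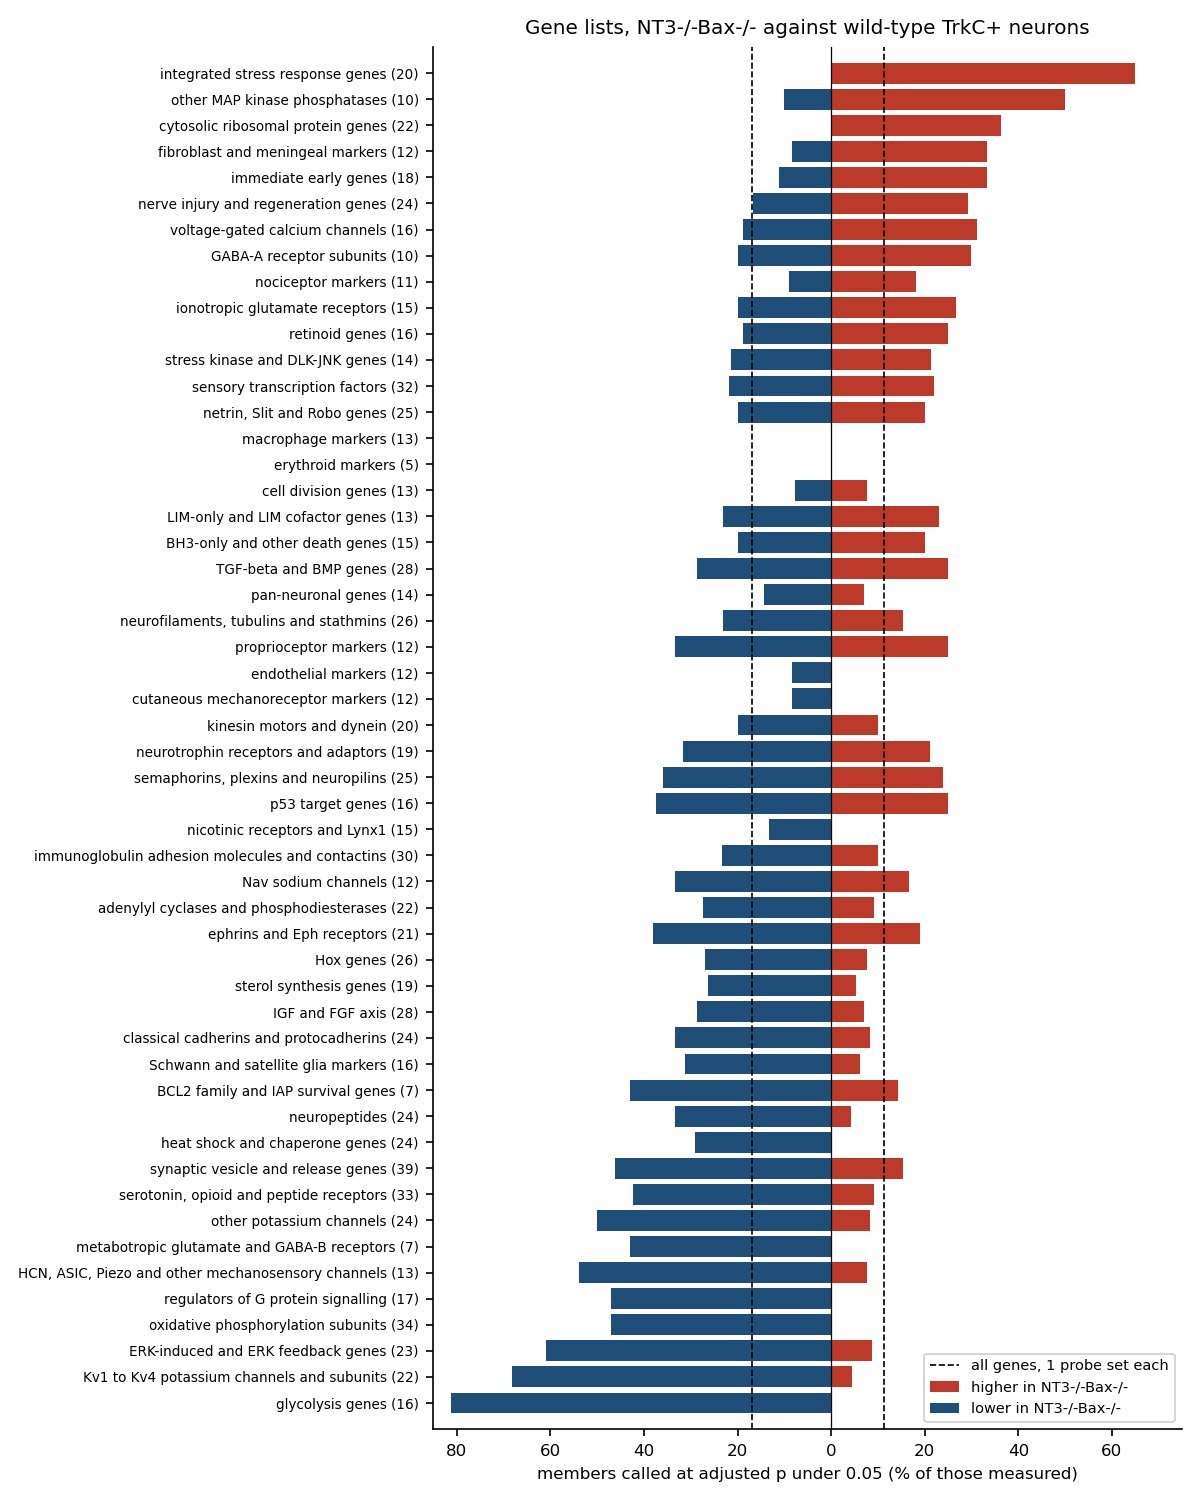
Share of the measured members of each gene list called higher (red, right) or lower (blue, left) in NT3-/-Bax-/- TrkC+ neurons relative to wild-type, with the number measured in parentheses. Dashed lines mark the shares of all genes, 11.4% higher and 17.0% lower, and 13 of 16 glycolysis genes and 15 of 22 Kv genes lie on the lower side.

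Most voltage-gated potassium channel genes fell, and in TrkC- cells 14 of the 22 measured fell as well. Of 22 Kv1 to Kv4 channels and their subunits 15 fell and 1 rose, 68.2% lower against 17.0% of all genes, with a median log2 difference of -1.24, and 11 to 14 fell when any 1 of the 4 arrays was left out. Kcnip4, a calcium-binding partner of Kv4 channels, had values of 27.8 and 27.2 in NT3-/-Bax-/-, 426 and 244 in Bax-/- and 424 and 559 in wild-type neurons (-4.15, standard error 0.42). Kcns1, a silent subunit, had 32.6 and 36.2 in NT3-/-Bax-/- against 520 and 517 in wild-type neurons (-3.92), and Kcnab1, a beta subunit of Kv1 channels, had 140 and 239 against 2379 and 2408 (-3.71). Kcna1 and Kcna2, the Kv1 channels of myelinated axons, fell by 2.80 and 1.58. Kcnip1, a paralog of Kcnip4, had 746 and 540 in NT3-/-Bax-/- against 72.0 and 70.8 in wild-type neurons (3.15, standard error 0.22) and was the only member to rise, or 1 of 2 without NT3-/-Bax-/- replicate 1. Of 24 other potassium channels 12 fell (50.0%) and 2 rose (8.3%). The background channel Kcnk1 had 145 and 76.2 in NT3-/-Bax-/- against 1478 and 1653 in wild-type neurons (-3.90), and its relative Kcnk2 (TREK-1) had 1008 and 680 against 307 and 262 (1.54).

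Sodium and calcium channel genes moved in both directions. Among calcium channel genes 18.8% fell and 31.2% rose, against 17.0% lower and 11.4% higher among all genes. Besides Scn4b, the sodium channel genes Scn1a (-2.53), Scn2b (-1.71) and Scn8a (-1.30) fell, of 12 measured. Scn3a, a channel of immature neurons, had values of 1641 and 1853 in NT3-/-Bax-/-, 1039 and 1110 in Bax-/- and 632 and 572 in wild-type neurons (1.54, standard error 0.27), and all 6 arrays followed that order. Scn2a also rose (0.77), without NT3-/-Bax-/- replicate 2 or wild-type replicate 1 not past the test (adjusted p = 0.0602 and 0.0770). Of 16 calcium channel genes 3 fell and 5 rose, 3 without wild-type replicate 1 or 2. Cacna2d3, an auxiliary subunit, had 11.6 and 21.2 in NT3-/-Bax-/- against 621 and 422 in wild-type neurons (-5.03, standard error 0.41). Cacna1e, the pore of R-type channels, had 2433 and 1540 in NT3-/-Bax-/-, 192 and 125 in Bax-/- and 121 and 126 in wild-type neurons (3.97, standard error 0.28), and Cacna1b, the N-type pore, rose by 1.09. The mechanically gated channel Piezo2 had 33.4 and 39.4 in NT3-/-Bax-/- against 664 and 697 in wild-type neurons (-4.23), and of 13 channels of its list 7 fell and 1, Asic3 (1.06), rose, or 2 without NT3-/-Bax-/- replicate 2. In Bax-/- neurons Piezo2 had 2194 and 1659, above both other genotypes.

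Within receptor families, subunits moved in opposite directions. Of 10 GABA-A receptor subunits 2 fell and 3 rose. Gabra2 had values of 10.8 and 22.7 in NT3-/-Bax-/-, 367 and 138 in Bax-/- and 548 and 628 in wild-type neurons (-5.23, standard error 0.63), falling with Gabrg1. Gabrb2 had 726 and 1260 in NT3-/-Bax-/- against 128 and 95.5 in wild-type neurons (3.11, standard error 0.31), Gabra3 had 600 and 1571 against 219 and 222 (2.14), and Gabrg3 rose by 1.47. Of 15 ionotropic glutamate receptor genes 4 rose and 3 fell (1 without NT3-/-Bax-/- replicate 2 or either wild-type replicate). The AMPA receptor subunit Gria1 had 1456 and 517 in NT3-/-Bax-/- against 152 and 104 in wild-type neurons (2.79), Gria3 rose by 1.79, and Gria4 had 285 and 632 against 1511 and 1630 (-1.89). Grin3a, a subunit of NMDA receptors, rose by 1.84. Grm3, a metabotropic glutamate receptor, had 47.2 and 37.3 in NT3-/-Bax-/- against 881 and 984 in wild-type neurons (-4.47).

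Of 33 receptors for serotonin, opioids and other peptides 14 fell (42.4%, against 17.0% of all genes), 3 rose and 16 did not pass the test. Htr1b had values of 38.8 and 89.8 in NT3-/-Bax-/-, 1875 and 1816 in Bax-/- and 1450 and 1618 in wild-type neurons (-4.70, standard error 0.40), and Htr1d fell by 2.87 and Htr2c as above. Cckar, a cholecystokinin receptor, had 9.2 and 14.9 in NT3-/-Bax-/- against 193 and 185 in wild-type neurons (-4.02). Both neurotensin receptors fell, Ntsr1 to 35.6 and 34.9 in NT3-/-Bax-/- against 145 and 148 in wild-type neurons (-2.06) and Ntsr2 to 33.9 and 26.3 against 108 and 130 (-1.99), while their ligand Nts rose. The risers were Sstr2, a somatostatin receptor (2.66), Oprm1, the mu opioid receptor (2.55), and Adcyap1r1, the PACAP receptor (2.26). Oprm1 had 155 and 202 in NT3-/-Bax-/- against 32.8 and 27.7 in wild-type neurons, and the number of risers was 5 without NT3-/-Bax-/- replicate 1.

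Of 17 regulators of G protein signalling 8 fell (47.1%, against 17.0% of all genes) and 0 rose, but 3 fell without NT3-/-Bax-/- replicate 1 or without wild-type replicate 1. Next to Rgs4, Rgs20 had values of 340 and 401 in NT3-/-Bax-/- against 1600 and 1724 in wild-type neurons (-2.17). Of 22 adenylyl cyclases and phosphodiesterases 6 fell (27.3%) and 2 rose (9.1%), and 3 fell without wild-type replicate 1 or 2. Adcy8, a calcium-stimulated cyclase, had 34.5 and 17.2 in NT3-/-Bax-/- against 399 and 477 in wild-type neurons (-4.17, standard error 0.38), and Pde1c, a calcium-stimulated phosphodiesterase, fell by 2.42. Pde2a, a phosphodiesterase stimulated by cyclic GMP, rose by 0.78 to 9870 and 9844, against 6147 and 5350 in wild-type neurons, and Pde8b by 0.84, a call lost without NT3-/-Bax-/- replicate 2 or either wild-type replicate (adjusted p = 0.151, 0.0633 and 0.117).

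Of 24 neuropeptide and secretory granule genes 8 fell, and Nts alone rose, or 2 rose without NT3-/-Bax-/- replicate 2. Calcb, which encodes a calcitonin gene-related peptide, had values of 20.0 and 18.1 in NT3-/-Bax-/-, 406 and 128 in Bax-/- and 595 and 305 in wild-type neurons (-4.49, standard error 0.67). Pcsk1, a convertase that cleaves peptide precursors, had 25.3 and 40.9 in NT3-/-Bax-/- against 212 and 242 in wild-type neurons (-2.82), and Crh fell by 2.65 to 7.6 and 10.7, against 93.7 and 34.3 in wild-type neurons. Vip had 21.4 and 19.5 in NT3-/-Bax-/-, 1258 and 103 in Bax-/- and 297 and 763 in wild-type neurons (-4.54), with wide spread in the genotypes that keep NT3.

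Isoforms of the release machinery moved in opposite directions, with 46.2% of the genes lower and 15.4% higher against 17.0% and 11.4% of all genes. Of 39 genes 18 fell and 6 rose, and 11 fell without wild-type replicate 1. Rab3c, a GTPase of synaptic vesicles, had values of 574 and 500 in NT3-/-Bax-/-, 7787 and 6409 in Bax-/- and 9158 and 7710 in wild-type neurons (-3.97, standard error 0.31). Syt2, a fast calcium sensor of release, had 408 and 615 in NT3-/-Bax-/- against 3221 and 2666 in wild-type neurons (-2.55), while Syt7, a slow calcium sensor, had 2435 and 2148 against 562 and 488 (2.13, standard error 0.19). Complexins showed the same opposition, with Cplx1 at 3353 and 6464 in NT3-/-Bax-/- against 16225 and 16554 in wild-type neurons (-1.82) and Cplx2 at 1978 and 1777 against 856 and 663 (1.32). Syn3, a synapsin of developing neurons, rose by 2.01. Vamp1 fell by 3.26, and Vamp2 did not pass the test (-0.48).

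Axon guidance genes included large changes in both directions, although none named here was among the 14 largest falls or rises. Of 21 ephrins and Eph receptors 8 fell and 4 rose. Epha4 had values of 18.1 and 28.0 in NT3-/-Bax-/-, 492 and 520 in Bax-/- and 719 and 626 in wild-type neurons (-4.90, standard error 0.50), and its ligands Efna5 (-2.39) and Efnb2 (-2.33) fell too. Ephb1 had 2520 and 2340 in NT3-/-Bax-/-, 121 and 180 in Bax-/- and 156 and 191 in wild-type neurons (3.82, standard error 0.23), and the ligand Efnb3 rose by 2.54. Of 25 semaphorins, plexins and neuropilins 9 fell and 6 rose, 2 without wild-type replicate 1. The secreted semaphorins Sema3c and Sema3a went in opposite directions, Sema3c to 5364 and 4600 in NT3-/-Bax-/- against 299 and 254 in wild-type neurons (4.17, standard error 0.22) and Sema3a to 75.4 and 60.8 against 816 and 776 (-3.56, standard error 0.34). Of 25 netrin, Slit and Robo genes 5 fell (3 without NT3-/-Bax-/- replicate 1 or wild-type replicate 2) and 5 rose. These shares were 20.0% each, against 17.0% lower and 11.4% higher among all genes. Slit2, a repellent ligand of Robo receptors, fell to 262 and 851 in NT3-/-Bax-/- against 4066 and 4408 in wild-type neurons (-3.16), and the netrin receptors Unc5b and Unc5c fell by 2.64 and 2.51.

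Of 24 cadherins and protocadherins 8 fell (33.3%), 5 without wild-type replicate 1 or 2, and 2 rose (8.3%), against 17.0% lower and 11.4% higher among all genes. Pcdh18 (1.28) and Pcdh9 (1.06) rose, Pcdh18 not without NT3-/-Bax-/- replicate 1 (adjusted p = 0.0541) or wild-type replicate 1 (adjusted p = 0.0719). Pcdh19 had values of 48.8 and 51.2 in NT3-/-Bax-/-, 1748 and 1574.5 in Bax-/- and 1967 and 2283 in wild-type neurons (-5.41, standard error 0.16, adjusted p = 1.34e-08), and Cdh9 had 30.1 and 33.4 in NT3-/-Bax-/- against 406 and 581 in wild-type neurons (-3.94). Of 30 immunoglobulin adhesion molecules and contactins 7 fell (23.3%) and 3 rose (10.0%), near the shares of all genes. Alcam had 347 and 657 in NT3-/-Bax-/- against 3197 and 2913 in wild-type neurons (-2.68), and Cntn2, a contactin of myelinated axons, fell by 1.85. The postsynaptic organizers Nlgn1 (2.61) and Lrrtm2 (1.96) rose, Lrrtm2 to 867 and 851 in NT3-/-Bax-/- against 206 and 235 in wild-type neurons.

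Nefh, the heavy neurofilament subunit, had values of 392 and 538 in NT3-/-Bax-/-, 9666 and 8398 in Bax-/- and 9988 and 9688 in wild-type neurons (-4.42, standard error 0.61). The light and medium subunits Nefl and Nefm did not pass the test (-0.50 and -0.69). Tuba4a had 495 and 1400 in NT3-/-Bax-/- against 12880 and 11902 in wild-type neurons (-3.89), and Map1a, a microtubule protein of mature neurons, fell by 2.27. Dcx, doublecortin, had 7842 and 9491 in NT3-/-Bax-/-, 3462 and 4831 in Bax-/- and 2724 and 2919 in wild-type neurons (1.61, standard error 0.18). Of 26 neurofilament, tubulin and stathmin genes 6 fell (23.1%) and 4 rose (15.4%, or 2 genes without wild-type replicate 2), near the 17.0% and 11.4% of all genes, and Tubb3, the neuronal beta-tubulin, did not pass the test (-0.19).

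Of 32 transcription factors of sensory neurons 7 fell and 7 rose (21.9% each), against 17.0% lower and 11.4% higher among all genes, and 4 rose without wild-type replicate 1 or 2. Maf, a factor of mechanoreceptors, had values of 274 and 290 in NT3-/-Bax-/-, 1022 and 1494 in Bax-/- and 2252 and 2346 in wild-type neurons (-3.03, standard error 0.42). Etv5, an ETS factor, fell by 2.52 and Esrra, a nuclear receptor of energy metabolism, by 1.43. Pbx3 had 4741 and 4965 in NT3-/-Bax-/-, 1231 and 1563 in Bax-/- and 770 and 692 in wild-type neurons (2.73, standard error 0.19), and its TALE partner Meis1 had 546 and 1123 in NT3-/-Bax-/- against 170 and 108 in wild-type neurons (2.53). Bcl11b, a zinc finger factor, rose by 2.19. Among LIM-only proteins and their cofactors 3 fell and 3 rose of 13 (23.1% each), with Lmo2 (-3.83) and Lmo1 (3.18) opposed, and Ldb2, a cofactor that links LIM proteins, rose by 4.26. Of 26 Hox genes 7 fell and 2 rose, but 3, 4, 4 and 2 fell without NT3-/-Bax-/- replicate 1 or 2 or wild-type replicate 1 or 2. The 2 that rose, Hoxc10 (1.22) and Hoxb3 (0.71), became 3, 0, 1 and 0 in the same order. Hoxd1, a gene of nociceptor development in the mouse, had 24.3 and 10.4 in NT3-/-Bax-/- against 293 and 175 in wild-type neurons (-3.83). The shares of the Hox list were 26.9% lower and 7.7% higher.

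Growth factors and their modulators included both strong rises and strong falls. Tgfb2 had values of 5984 and 6112 in NT3-/-Bax-/-, 448 and 991 in Bax-/- and 338 and 326 in wild-type neurons (4.19, standard error 0.35), and its signal transducer Smad3 rose by 1.65. Bmp7 rose by 2.62 and Bmp5 had 28.1 and 27.8 in NT3-/-Bax-/- against 528 and 485 in wild-type neurons (-4.18). The BMP target Id3 (-2.26) and the BMP modulator Crim1 (-2.64) fell. Of 28 TGF-beta and BMP genes 8 fell, 5 without NT3-/-Bax-/- replicate 1 or wild-type replicate 1, and 7 rose. Igf1 had 195 and 262 in NT3-/-Bax-/-, 811 and 822 in Bax-/- and 1712 and 1624 in wild-type neurons (-2.88, standard error 0.40), the Bax-/- arrays lying between the other genotypes. Pappa2, a protease that frees IGF from its binding proteins, fell by 2.58, Fgf12 by 2.48 and Fgf1 by 1.99. Of 28 genes of the IGF and FGF list 8 fell, and 4 or 5 when any 1 of the 4 arrays was left out.

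The genes of energy metabolism that passed the test were lower. Of 16 glycolysis genes 13 fell and 0 rose, 81.2% lower against 17.0% of all genes, with a median log2 difference of -0.84, and 7, 8 and 8 fell without NT3-/-Bax-/- replicate 1 or wild-type replicate 1 or 2. Aldoc, an aldolase, had values of 433 and 852 in NT3-/-Bax-/-, 4402 and 3703 in Bax-/- and 5016 and 4729 in wild-type neurons (-3.0, standard error 0.39). The lactate dehydrogenases Ldha and Ldhb fell, Ldha to 1358 and 2224 in NT3-/-Bax-/- against 5845 and 5668 in wild-type neurons (-1.73) and Ldhb to 2808 and 2434 against 6796 and 6525 (-1.35). Of 34 subunits of oxidative phosphorylation 16 fell (47.1%) and 0 rose, 9 without NT3-/-Bax-/- replicate 1 and 7 without wild-type replicate 1, and 33 of the 34 differences were below 0. Their changes were small, Uqcrc1 having the largest at -1.30.

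Cytosolic ribosomal protein genes stood on the other side. Of 22 measured 8 rose and 0 fell, with a median log2 difference of 0.50, but the calls depended on single arrays, with 1 without NT3-/-Bax-/- replicate 1, 4 without wild-type replicate 1 and 0 without wild-type replicate 2. Rps14 had values of 11573 and 10517 in NT3-/-Bax-/-, 8329 and 6270 in Bax-/- and 6722 and 6072 in wild-type neurons (0.79, adjusted p = 0.00566), and without wild-type replicate 2 it missed the threshold at an adjusted p of 0.0524. Heat shock and chaperone genes fell in 7 of 24 cases, 4 without wild-type replicate 1, and 0 rose, or 1 without NT3-/-Bax-/- replicate 1. Bag3, a co-chaperone, had 166 and 95.9 in NT3-/-Bax-/- against 1381 and 1316 in wild-type neurons (-3.42, standard error 0.29), and its partner Hspb8 fell by 2.61.

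**Figure D3:**
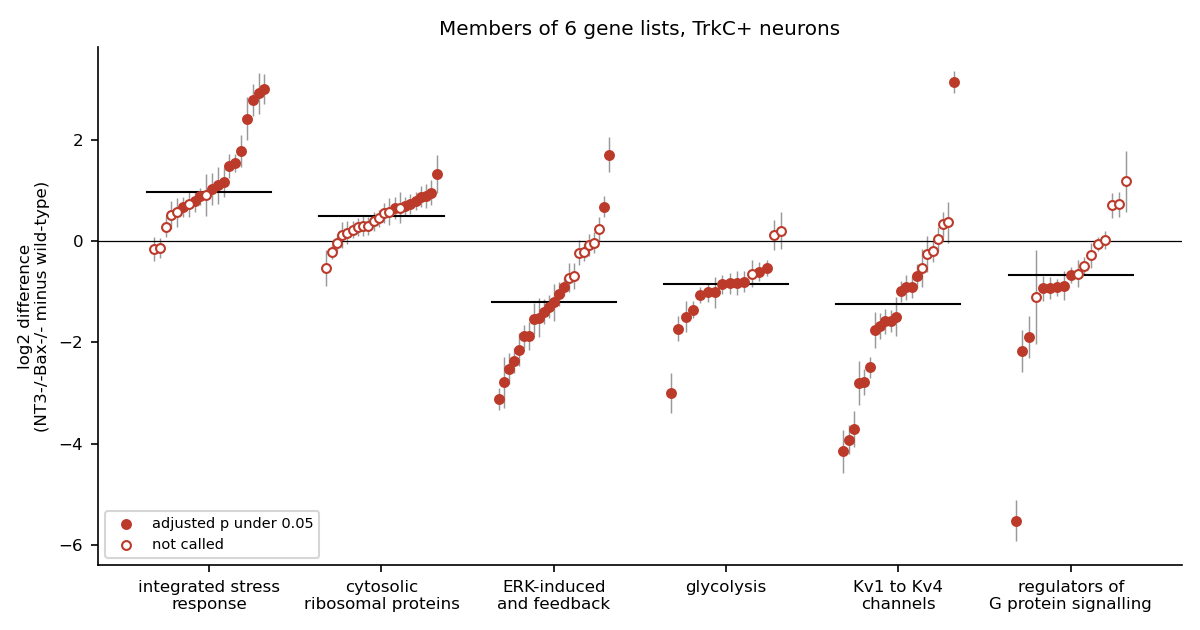
Log2 difference (NT3-/-Bax-/- minus wild-type TrkC+ neurons) of each measured member of 6 gene lists, ordered by size within a list, with standard errors from the fit as bars. Filled symbols passed the test and black lines are medians, which lie at 0.97 for the integrated stress response, 0.50 for ribosomal proteins, -1.21 for ERK-induced genes, -0.84 for glycolysis, -1.24 for Kv channels and -0.67 for regulators of G protein signalling.

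Markers of the other cells of the ganglion were examined in the same arrays. Of 14 pan-neuronal genes Prph (-1.09) and Isl1 (-0.70) fell and Pou4f1 (0.56) rose. Prph alone kept its call without any 1 array, Isl1 losing it without NT3-/-Bax-/- replicate 1 or either wild-type replicate (adjusted p of 0.112 to 0.212) and Pou4f1 without any of 10 arrays, the 4 compared among them. Their summed value was 68485 and 85296 in NT3-/-Bax-/- against 96603 and 93942 in wild-type neurons. Endothelial markers (summed value 685 and 610 against 798 and 788) and macrophage markers (466 and 427 against 580 and 596) were no higher in the mutant arrays. For erythroid markers (118 and 97.4 against 112 and 111) the mutant arrays lay on both sides of wild-type. Schwann and satellite glia markers summed to 11776 and 6959 in NT3-/-Bax-/- against 14825 and 12271 in wild-type neurons, and 5 of 16 fell (3 without wild-type replicate 1), led by S100b, which large sensory neurons also express (-4.57). Gfra3, a receptor subunit that sensory neurons also express, rose (1.42), and 2 rose without NT3-/-Bax-/- replicate 2. Fibroblast and meningeal markers differed most in sum, which in the mutants rested largely on Postn (9371 and 8328, against 767 and 686 in wild-type neurons). Their summed value was 13522 and 11396 in NT3-/-Bax-/- against 2092 and 1706 in wild-type neurons, and 4 of 12 rose and Dcn fell (-1.08, adjusted p = 0.178 and 0.116 without wild-type replicate 1 and 2, and 0.388 without NT3-/-Bax-/- replicate 1).

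The 4 that rose are matrix genes. Postn, periostin, had values of 9371 and 8328 in NT3-/-Bax-/-, 757 and 1284 in Bax-/- and 767 and 686 in wild-type neurons (3.61, standard error 0.36), Col6a1 had 1592 and 1341 in NT3-/-Bax-/- against 106 and 95.7 in wild-type neurons (3.86), and Fn1, fibronectin, had 848 and 555 against 62.3 and 47.4 (3.66). Col3a1 rose by 3.48 to 434 and 290, against 43.6 and 23.2 in wild-type neurons, and lost its call without NT3-/-Bax-/- replicate 1 (adjusted p = 0.0957) or wild-type replicate 2 (adjusted p = 0.123). The fibroblast gene Col1a1 had 49.6 and 61.4 in NT3-/-Bax-/- against 59.4 and 54.2 in wild-type neurons, below the array median in both. Col1a2 had 742 and 456 against 424.5 and 304 (0.70), which did not overlap but did not pass the test. Pdgfra, Lum and Mgp did not pass the test either (-0.58, 0.49 and -0.28). On the TrkC- arrays of the mutants the fibroblast list summed to 45272 and 63801 against 5376 and 4654 in wild-type TrkC- cells, with Col1a1 at 3564 and 5434 against 82.6 and 49.5. The part of such cells in the differences above was not tested.

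**Figure D4:**
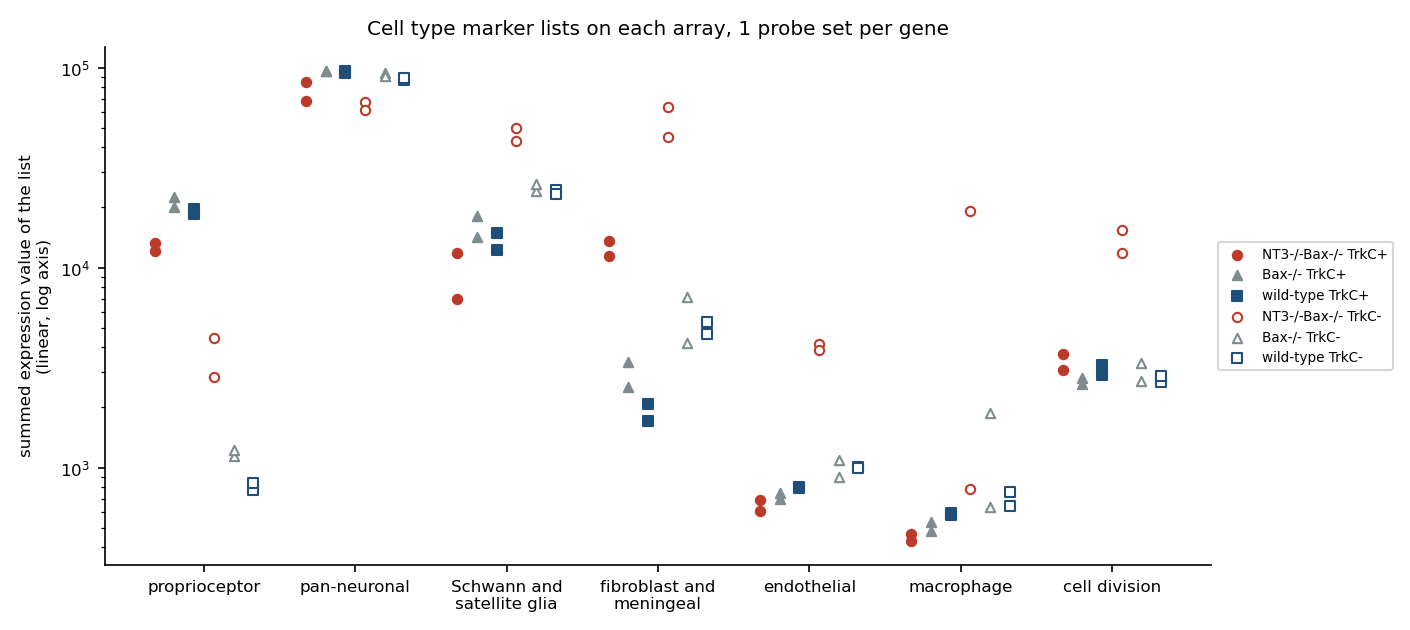
Summed expression values (linear, log axis) of 7 marker lists on each array of NT3-/-Bax-/-, Bax-/- and wild-type mice, filled for TrkC+ and open for TrkC- populations, 2 arrays each. The NT3-/-Bax-/- TrkC- arrays stand above the others for glial, fibroblast, endothelial and dividing-cell markers. In TrkC+ neurons the fibroblast sum is higher in the mutants (13522 and 11396) than in wild-type (2092 and 1706), largely through Postn.

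The same genotypes were compared in the TrkC- population, which shares no array with the comparison above. The labels do not say whether TrkC+ and TrkC- arrays of a number came from the same animals, but Xist and Eif2s3y had the same pattern in the TrkC+ and TrkC- arrays of each number in both genotypes, NT3-/-Bax-/- replicate 1 having 57.8 and 79.3 for Xist and replicate 2 having 5407 and 5985. The fit takes all arrays as separate samples, so the populations may not be independent samples of the genotypes. There 6505 probe sets fell (14.4%) and 5436 rose (12.1%) in the mutants, in all 26.5% of those tested. The genotype difference itself differed between the populations for 4693 probe sets (10.4%), being more negative in TrkC+ neurons for 2572 (5.71%) and more positive for 2121 (4.71%), and for 2737 to 2932 in all when either wild-type TrkC+ or either wild-type TrkC- replicate was left out. With the TrkC+ and TrkC- arrays of a number taken as pairs it was 4954. Of the 5729 probe sets lower in TrkC+ neurons 2659 (46.4%) were also lower in TrkC- cells, which is 40.9% of those lower in TrkC- cells, and of the 5987 higher ones 2345 (39.2%, and 43.1% of those higher in TrkC- cells) were also higher. Of those lower in TrkC+ neurons 429 (7.50%, and 7.90% of those higher in TrkC- cells) were higher in TrkC- cells, and of those higher in TrkC+ neurons 209 (3.50%, and 3.20% of those lower in TrkC- cells) were lower. Hrk was among the genes that rose in both, with 2912 and 4606 in NT3-/-Bax-/- TrkC- cells against 117 and 132 in wild-type TrkC- cells (4.88), and so was Nts (4.75). Of the integrated stress response genes 11 of 20 were higher in TrkC- cells and 0 lower, and of the ERK-induced genes 7 were lower and 7 higher. Of 22 Kv1 to Kv4 genes 14 were lower in TrkC- cells and 1 higher, with a median log2 difference of -1.11. Of 39 release genes 22 were lower and 1 higher, and of 16 glycolysis genes 9 were lower and 2 higher. Of 18 immediate early genes 12 were higher and 0 lower. The shifts of these 4 lists were thus not particular to TrkC+ neurons. Besides the higher marker levels of other cell types on the mutant TrkC- arrays, 6 of the 12 proprioceptor markers were higher and 1 lower on these arrays (11.8% and 18.9% of all genes), Esrrg having 293 and 637 in NT3-/-Bax-/- against 30.9 and 18.9 in wild-type TrkC- cells and the brightest probe set of Ntrk3 having 543 and 570 against 61.8 and 79.3, while Pvalb (-0.19), Pth1r (0.43) and Chad (-0.43) did not pass the test.

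**Figure D5:**
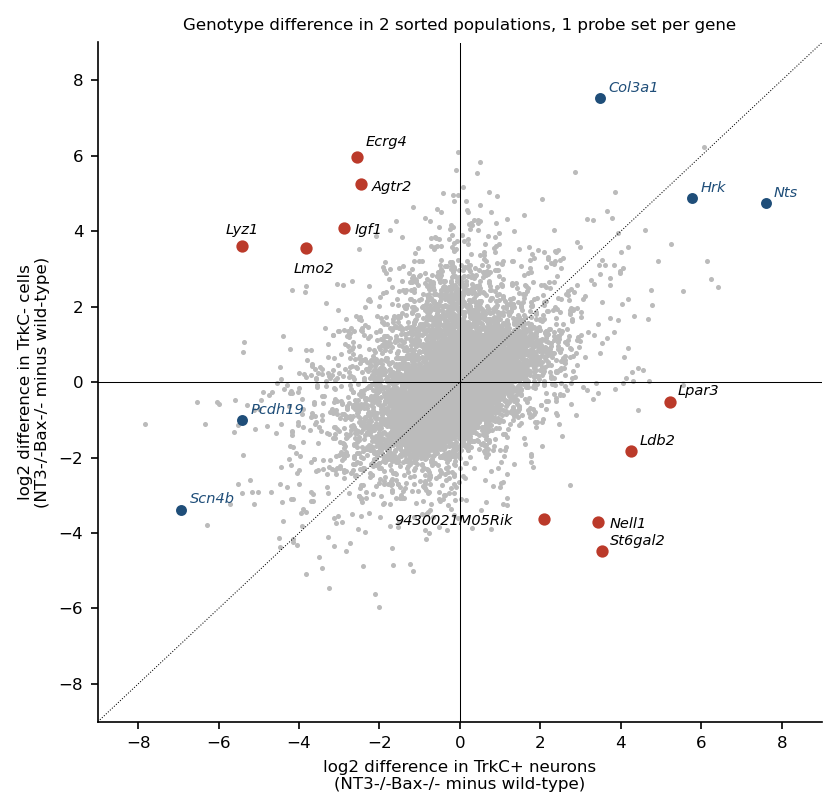
Log2 difference, NT3-/-Bax-/- minus wild-type, in TrkC+ neurons (x axis) and in TrkC- cells (y axis), 1 grey point per gene, with equal differences on the dotted line. Red points are the 5 genes with the largest negative and the 5 with the largest positive difference between the populations among those past the test of that difference, and blue points are further genes, of which Hrk (5.78 and 4.88) and Nts (7.60 and 4.75) lie high in both populations and Scn4b (-6.93 and -3.38) low in both.

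Several genes gave opposite results on different probe sets, which read different stretches of the transcripts. Of 9010 genes with more than 1 probe set, 1937 had at least 2 called, and 168 of these had calls in both directions. For Ncam1, the neural cell adhesion molecule, 1 probe set had values of 86.5 and 73.6 in NT3-/-Bax-/- against 971 and 626 in wild-type neurons (-3.29, adjusted p = 2.73e-05), and another had 1344.5 and 909 against 411 and 363 (1.52, adjusted p = 0.0410). The rise of Ncam1 lost its call without any of 10 of the 16 arrays, with an adjusted p of up to 0.208, while the fall kept its call without any. Hmbox1, a homeobox factor, had 1 probe set at 814.5 and 600.5 against 219 and 236 (1.62) and another at 46.5 and 36.4 against 121 and 133 (-1.62). Pfkp, a phosphofructokinase, fell on 1 dim probe set by 2.66 and rose on another by 1.60 (adjusted p = 0.0589 without NT3-/-Bax-/- replicate 2 and adjusted p = 0.0806 without wild-type replicate 2). Nudcd1 (1.54 and -1.70) and Slf1 (1.97 and -1.52) were split in the same way, and both calls of Slf1 were lost without NT3-/-Bax-/- replicate 1 or either wild-type replicate (adjusted p of 0.0743 to 0.183).

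The mutant replicates were less alike than the wild-type replicates. The log2 values of the 2 NT3-/-Bax-/- arrays were more than 1 apart for 2722 probe sets (6.04%), and those of the 2 wild-type arrays for 221 (0.490%). Pvalb, which fell, had 156 and 838.5 in NT3-/-Bax-/- neurons against 7764 and 7173 in wild-type neurons. Apart from Xist, the expressed genes that were highest in replicate 2 relative to replicate 1 were Kctd4 (30.7 and 548 in NT3-/-Bax-/-, 29.2 and 40.1 in wild-type), Naip5 (36 and 566, 32.2 and 22.2), Tlnrd1 (21.3 and 272, 208 and 174) and Ccnd1, cyclin D1 (25.8 and 268, 153 and 126). None of these passed the test between genotypes. Apart from Eif2s3y, those highest in replicate 1 were Qrfpr, a peptide receptor (976 and 35.2 in NT3-/-Bax-/-, 11.7 and 9.5 in wild-type), Bub1b (474 and 46.0, 55.3 and 61.3), Myo7a (306 and 25, 139 and 116) and Pth, parathyroid hormone (225 and 27.9, 16.2 and 21.2). Of these Qrfpr (4.13, adjusted p = 0.00979) and Pth (2.10, adjusted p = 0.0487) passed the test, Qrfpr with adjusted p = 0.0614 without wild-type replicate 2 and Pth with up to 0.465 without NT3-/-Bax-/- replicate 1. The call of Pth was lost without any of 13 of the 16 arrays.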

How the data were processed

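Per the labels, GFP-sorted cells were hybridised to Affymetrix Mouse Genome 430 2.0 arrays, and the authors made the deposited expression values with RMA (affy in R 2.9); whether the 39 arrays of the series were normalized together is not given in the sources used here. The deposited values are intensities on a linear scale, although log2 values had been assumed for the tests, so log2 was taken here with no pseudocount. Affymetrix control probe sets (64) were left out, and no probe set was left out for low values. Genes come from the platform annotation, by which 34945 probe sets have 1 gene, 932 several and 9160 none, and none was named from a probe set with several.

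All 16 arrays of pooled p0 DRG (8 groups of 2) were fitted together in R 4.3.3 by limma 3.58.1 (functions lmFit and eBayes; 8 residual and 4.11 prior degrees of freedom), so that the groups share 1 estimate of the spread, and contrasts were taken between groups. P-values were adjusted by Benjamini-Hochberg over all 45037 probe sets and called under 0.05. The difference between populations is the genotype difference in TrkC+ minus that in TrkC- cells. The scripts were tested on simulated data. The number of arrays limits the precision.

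Each gene was read from the probe set with the highest mean log2 value over the 16 arrays. Gene lists (52) are described by their counts and medians. The genes named are the 14 largest falls and rises among called genes whose arrays do not overlap, those of a list's called members that changed most (no more than 5) and members on which a result turns, genes named by the study, the 5 largest differences between populations in each direction, up to 5 genes with opposite probe sets, and the 5 genes in each direction whose mutant arrays differ most. The comparison, the members and the lists were chosen with earlier results of these data known.

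Alternatives were quantile normalization, median scaling, 16 added before log2, a filter on dim probe sets, array weights, trend and robust eBayes, fits of the 4 or of the 8 TrkC+ arrays, the mean over probe sets, stricter thresholds, the methods' t-test, the replicate block, leaving out each array and, chosen after seeing the data, TrkC+ and TrkC- arrays of a number as a block. The other arrays of the series were not used here.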

Additional observations from a re-analysis of the deposited data

Results flagged for a closer look

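The genotype difference was compared between the TrkC+ and TrkC- populations in the same fit, and 4693 probe sets (10.4%) differed at an adjusted p under 0.05 (limma), 2572 with a lower and 2121 with a higher difference in TrkC+ neurons. That number was 2923 and 2755 without wild-type TrkC+ replicate 1 and 2, and 2737 and 2932 without wild-type TrkC- replicate 1 and 2. It was 4954 with the TrkC+ and TrkC- arrays of a number taken as pairs, whose common origin the labels do not give. On the NT3-/-Bax-/- TrkC- arrays the summed values of fibroblast markers were 45272 and 63801, against 5376 and 4654 in wild-type TrkC- cells, and those of macrophage markers 19251 and 780, against 641 and 757. The part of these cells in the differences was not tested.

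Among genes past the test of that difference, the 5 with the most negative value fell in TrkC+ neurons and rose in TrkC- cells. They were picked by the difference, so its size is part of their selection. In all, 429 probe sets were lower in TrkC+ neurons and higher in TrkC- cells. Lyz1, a lysozyme, had the largest log2 difference between the populations at -9.02 (adjusted p = 0.00495), with 3241 and 122 on the mutant TrkC- arrays against 55.9 and 48.0 in wild-type, the higher value on the array with the higher macrophage sum. The difference was -8.53 for Ecrg4, with 503 and 1295 in NT3-/-Bax-/- TrkC- cells against 11.7 and 14.2 in wild-type, and -7.68 for Agtr2, an angiotensin receptor. For Lmo2, a LIM-only protein, it was -7.38, with 2234 and 2446 in NT3-/-Bax-/- TrkC- cells against 142 and 281 in wild-type, and for Igf1 -6.97.

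The 5 with the most positive difference, picked in the same way, rose in TrkC+ neurons and were lower or not past the test in TrkC- cells. St6gal2, a sialyltransferase, had the largest difference at 7.99 (adjusted p = 2.73e-05), with 62.8 and 21.3 in NT3-/-Bax-/- TrkC- cells against 725 and 909 in wild-type. Nell1, a secreted protein, followed at 7.13, its mutant TrkC+ arrays being far apart at 655 and 3240. The difference was 6.08 for Ldb2, 5.73 for Lpar3, which did not pass the test in TrkC- cells (-0.52, adjusted p = 0.473), and 5.72 for 9430021M05Rik.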

How the results depend on the processing

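The 5729 probe sets that were lower and 5987 that were higher in NT3-/-Bax-/- TrkC+ neurons numbered 3318 to 6199 and 3492 to 6461 when 1 array was left out, 3425 and 3557 at an adjusted p under 0.01, and 3416 and 3729 with a fold of at least 2. After Benjamini-Hochberg the methods' t-test called 0 lower and 0 higher, although 10502 probe sets had an unadjusted p under 0.05. With an unadjusted p no larger than 0.02 and a 2-fold change, the t-test gave 1545 lower and 1691 higher, against 3480 and 3842 with limma. When 1 array was left out, the number that differed was 5241 to 8447 between NT3-/-Bax-/- and Bax-/-, 9 to 1151 between Bax-/- and wild-type, and 2737 to 5329 between the populations. With the replicate number as a block, 5830 were lower and 6133 higher. The labels do not say that the numbers pair the arrays, and the deviations of NT3-/-Bax-/- and wild-type TrkC+ replicates correlated at -0.092. TrkC+ and TrkC- arrays of a number correlated at 0.158 in NT3-/-Bax-/-, 0.283 in Bax-/-, 0.197 in wild-type and 0.008 in mlcNT3 mice. With them as a random block, chosen after seeing the data, 5695 were lower, 5987 higher and 5426 differed between the populations, and with them as pairs 4954 did.

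Of 258 named genes called, 41 were no longer called without wild-type replicate 2, 37 without wild-type replicate 1, 40 without NT3-/-Bax-/- replicate 1 and 16 without NT3-/-Bax-/- replicate 2, 28 in a fit of the 4 arrays alone, 16 in a fit of the 8 TrkC+ arrays, 3 with the replicate block and 1 with quantile normalization. The direction turned with the mean over probe sets for Mapk8ip1 (-0.10), Ntrk3 (0.50), Esrrg (0.64), Hmbox1 (-0.42), Slf1 (0.23) and Ncam1 (-0.15), where probe sets of a gene disagree. Genes with mutant replicates far apart turned when 1 array was left out, from lowest to highest Xist (-2.94 to 3.61), Kctd4 (-0.16 to 4.00), Tlnrd1 (-3.16 to 0.52), Ccnd1 (-2.43 to 0.95), Bub1b (-0.34 to 3.02), Myo7a (-2.35 to 1.27) and Eif2s3y (-3.60 to 4.02), none of which was called with all arrays. With 2 arrays in each group, few arrays limit the precision of every value.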
